A study of Mus musculus with 9 samples.

Results

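Heparan sulfate proteoglycans are core proteins at the cell surface or in the matrix that carry long sulfated sugar chains. The 10 genes described here were the secreted enzymes that act on those chains (Hpse, Sulf1 and Sulf2), 5 glypican core proteins (Gpc1, Gpc2, Gpc3, Gpc4 and Gpc6) and 2 syndecan core proteins (Sdc1 and Sdc4), 10 of the 18193 genes measured. A gene entered through every probe set that the platform annotation gave its symbol, 23 probe sets in all, and 1 more probe set was shared between Gpc2 and a second gene. The genes were chosen by name with their signals on these same 9 arrays already in view, and signals from all 3 group comparisons bore on the choice. Their differences are therefore given as description, with no p-value, and nothing is read from how many of them passed the threshold used for all genes.

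RNA from 9 cultures of C57BL/6 mice was measured on Affymetrix Mouse Genome 430 2.0 arrays, 3 arrays in each of 3 groups. Cultures called wild-type here were neural stem cells (NSC) of the third ventricle (TVZ) from Nf1flox/flox pups at postnatal day 1, infected with a LacZ virus as control. The Nf1-null NSC had the same floxed genotype, age and region but were infected with a Cre virus, so both NSC groups carried the floxed alleles and a virus. Glioma stem cells came from optic gliomas of 3-month-old mice whose genotype the labels give as Nf1+/-GFAP CKO, that is, a conditional knockout named for the astroglial gene GFAP on a heterozygous background. All cells were grown in low-attachment dishes with N2 and B27 supplements, 20 ng/ml FGF and 20 ng/ml EGF. The glioma stem cells differed from the NSC in tumour origin, genotype, age, tissue and virus together, and these cannot be told apart. For the NSC the design text names independent cultures, and for the glioma cells it gives no such statement, so any p-value measures only the spread between these samples. These were bulk samples, in which fewer cells of a type and less RNA per cell cannot be told apart.

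Heparan sulfate binds growth factors such as FGFs at the cell surface and helps them engage their receptors. Its pattern of 6-O-sulfate groups affects which factors bind, the extracellular sulfatases Sulf1 and Sulf2 remove such groups, and heparanase, the product of Hpse, cuts the chains into fragments. In the developing brain, glypicans and syndecans present these chains on neural progenitors and glia.

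Signals were intensities on a linear scale that had a common trimmed mean of 1500 on every array, and the number of arrays limits their precision. The targeted gene Nf1 had signals of 1139.5, 919.5 and 999.9 on the wild-type arrays, 430.3, 645.8 and 577 on the Nf1-null arrays and 622.6, 600.1 and 548.9 on the glioma arrays. It was thus lower on every array of both other groups than in wild-type NSC. In limma it differed from wild-type NSC by -0.90 log2 units (adjusted p = 0.123) in Nf1-null NSC and by -0.78 (adjusted p = 0.0441) in glioma stem cells. The latter did not pass with the replicate block (adjusted p = 0.0783) or without any 1 wild-type or glioma array or the third Nf1-null array (adjusted p from 0.0630 to 0.139). The summed signal of 7 neural stem and progenitor markers overlapped between the groups, with ranges of 209299 to 279842 for wild-type NSC, 220532 to 259164 for Nf1-null NSC and 219787 to 255279 for glioma stem cells. Single markers did not all overlap. Nes was 8931.7 to 11387.8 in glioma stem cells against 3122.2 to 5325.5 in wild-type NSC, and Vim 94053.8 to 96888.7 against 59198.9 to 90628.9. Sox2 was lower, at 28137.3 to 40343.3 against 42161.7 to 49793.5, and Msi1 at 1234.2 to 2083.8 against 3131.1 to 4379.1. In limma 1 of the 7 passed as lower in that comparison. Other marker lists separated some of the groups. The 8 astrocyte markers summed to 223370 to 276836 on wild-type arrays, above the 108343 to 188704 of the Nf1-null and the 98573 to 129000 of the glioma arrays. In glioma stem cells 4 of the 8 passed as lower than in wild-type NSC. Not all 8 followed the sum. S100b was 17467.7 to 34245.9 in glioma stem cells, above the 4451.4 to 11308.3 of wild-type NSC. For Slc1a2 and Aldoc the same groups overlapped. The 8 oligodendrocyte precursor markers summed to 133654 to 150421 on wild-type arrays, 87094 to 111109 on Nf1-null arrays and 140028 to 151627 on glioma arrays. Olig1 was the brightest of them, at 70189.1 to 74070.7, 61379.5 to 72997.1 and 69257.2 to 87781.7. Not every precursor marker followed the sum. Gpr17 was 9899.8 to 30597.9, 20.1 to 2432.1 and 495.4 to 2326. Olig2, Cspg4 and Pcdh15 were higher on every glioma array than on any NSC array. Pcdh15 was 1099.6 to 2044.9, 151.6 to 674.4 and 3728.6 to 5337.7. The 8 neuron markers summed to 52933 to 60888, 45583 to 47302 and 37916 to 45717 in the same order. Map2 carried most of these sums, at 48210.4 to 55847.9, 42715 to 44338.8 and 31879.2 to 42238.6. The other neuron markers did not all follow it. Rbfox3 fell in that order, while Tubb3 was 569.2 to 1057.2, 260 to 496.7 and 1329.7 to 2194.1. For the glioma arrays, 2 of the 8 passed as lower against wild-type NSC and 1 as higher against Nf1-null NSC. Of 8 microglia and macrophage markers, 5 lay in the dimmest 25% of genes, and the list summed to 703 to 1122 over all 9 arrays.

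RefSeq promoter windows were at hand for 7 of the 10 genes, as 8 windows on build GRCm38.p6. Sulf1, Gpc1 and Gpc6 had none. The windows of Hpse, Sdc1 and Gpc2 are shown because these genes separated wild-type NSC from glioma stem cells on every array. Each is the 250 bases before the gene's start, written 5′ to 3′ on the gene's strand, and capitals mark the GC box GGGCGG or its reverse complement CCGCCC. The Hpse window is chr5:100719717-100719966 on the minus strand, the Sdc1 window chr12:8771146-8771395 on the plus strand and the Gpc2 window chr5:138279938-138280187 on the minus strand.
Hpse: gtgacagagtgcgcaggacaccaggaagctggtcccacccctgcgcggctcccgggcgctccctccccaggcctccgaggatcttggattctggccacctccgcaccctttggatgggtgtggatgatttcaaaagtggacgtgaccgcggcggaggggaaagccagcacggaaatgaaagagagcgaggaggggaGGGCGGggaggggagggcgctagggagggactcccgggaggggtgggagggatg
Sdc1: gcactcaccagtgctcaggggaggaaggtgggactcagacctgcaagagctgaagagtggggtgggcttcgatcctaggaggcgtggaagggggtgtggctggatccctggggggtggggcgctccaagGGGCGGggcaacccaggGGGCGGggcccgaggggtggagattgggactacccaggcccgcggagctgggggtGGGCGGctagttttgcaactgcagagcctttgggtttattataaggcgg
Gpc2: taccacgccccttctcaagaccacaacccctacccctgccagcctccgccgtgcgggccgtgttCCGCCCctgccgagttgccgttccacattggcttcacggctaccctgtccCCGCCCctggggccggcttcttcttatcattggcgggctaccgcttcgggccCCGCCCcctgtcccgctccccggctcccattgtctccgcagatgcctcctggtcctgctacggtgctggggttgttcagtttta
The Hpse window held 1 GC box, and those of Sdc1 and Gpc2 held 3 each. With both strands searched, a GC box was present in 7 of the 8 windows and in 32.7% of 32851 promoter windows of the same length. The AP-1 motif TGANTCA was in 0 of the 8 windows and in 6.75% of all windows, and the ETS motif CCGGAAG was in 0 of 8 and in 6.91%. The motifs were counted separately, overlaps included, and a match describes the sequence only.

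Hpse had low signals in both NSC groups and higher signals, by unequal amounts, on the glioma arrays. Hpse encodes heparanase, the endoglucuronidase that cuts heparan sulfate. Its single probe set had signals of 28.1, 17.5 and 11.9 on the wild-type arrays, 93, 28.8 and 21.1 on the Nf1-null arrays and 235.8, 1296.2 and 1770.2 on the glioma arrays. All 3 glioma arrays lay above all 6 NSC arrays, while the NSC groups overlapped and the first Nf1-null array stood above the other NSC arrays. The mean signal was 1101 ± 786 (SD, n = 3) in glioma stem cells, against 19.2 ± 8.23 (n = 3) in wild-type and 47.6 ± 39.5 (n = 3) in Nf1-null NSC. On the log2(value + 1) scale glioma stem cells exceeded wild-type NSC by 5.42 (SE 0.84), or 42.8-fold, and Nf1-null NSC by 4.37 (SE 0.84), or 20.6-fold. The Nf1-null to wild-type difference was 1.05 (SE 0.84), and same-numbered NSC arrays differed by 1.69, 0.69 and 0.78. Because the NSC signals were so low these folds depend on the pseudocount: with 16 in place of 1 the glioma differences were 4.60 from wild-type and 3.89 from Nf1-null NSC.

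The glioma arrays themselves differed in Hpse, with 235.8 on the first array and 1296.2 and 1770.2 on the others. Without the first glioma array the difference from wild-type NSC was 6.31. The summed signal of 7 measured mature oligodendrocyte markers followed the same order within the glioma arrays, at 27606, 58062 and 92554. Mbp and Cnp carried most of that sum. The myelin gene Mbp had signals of 2601.3, 29057.3 and 65239.2 on these arrays, Mag 175.1, 512.4 and 867.4, and Mog 20.7, 140 and 389.2. The other markers of the list did not keep that order. Cnp was 23880.6, 27790.5 and 25453.1 and Mal 639.8, 242.9 and 328.8. Opalin was 270, 304.2 and 174 and Mobp 18.6, 14.4 and 102.1. In wild-type NSC, where Hpse was 11.9 to 28.1, the same list summed to 42178 to 63187, and in Nf1-null NSC to 20734 to 45138. Cnp carried most of these NSC sums, at 39313.2 to 55848.5 in wild-type and 19185.7 to 43357 in Nf1-null NSC. In the same order Mbp was 495.4 to 6599.4 and 189.2 to 376.5, and Mag 54 to 98.8 and 31.5 to 254. Mog was 29.8 to 61.2 and 34.8 to 61.2, and Mal 201.7 to 310.4 and 189.2 to 384.7. Opalin was 204.3 to 299.2 and 605.8 to 869.1, and Mobp 31.6 to 238.6 and 75.8 to 211.1. The 6 measured Schwann cell markers summed to 13302, 19853 and 20788 in glioma stem cells, 3229 to 8415 in wild-type and 6332 to 12333 in Nf1-null NSC. Pmp22, at 4380.5, 11229 and 12151.6, and Cdh19, at 7181.4, 7192.4 and 7454.9, carried most of the glioma sums. Over the same 3 arrays Erbb3 and Foxd3 also rose, while Egr2, at 1450.5, 868.6 and 395.2, and the dim Ncmap fell. The 8 endothelial markers, of which Plvap carried most of the signal and 5 lay in the dimmest 25% of genes, summed to 2398, 4474 and 6276 in glioma stem cells, 1147 to 1371 in wild-type NSC and 2664 to 5680 in Nf1-null NSC. Kdr, Cdh5 and Emcn were instead lower on every glioma array than on any wild-type array, Kdr at 164.2 to 187.2 against 283.6 to 382. Against wild-type NSC 1 of the 8 passed as higher in glioma stem cells and 1 as lower. The part of these cell types in the Hpse signal was not tested.

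Sulf1 had the opposite placement, lowest in glioma stem cells and highest in Nf1-null NSC. It encodes a secreted sulfatase that removes 6-O-sulfate groups from the chains. Its signals were 716.5, 487.1 and 1875.2 on the wild-type arrays, 2339.9, 1827.8 and 2491.3 on the Nf1-null arrays and 233, 372.6 and 224.7 on the glioma arrays. The glioma arrays lay below all 6 NSC arrays, and the NSC groups overlapped because the third wild-type array reached 1875.2, above the second Nf1-null array. The means were 1026 ± 744, 2220 ± 348 and 277 ± 83.1 (SD, n = 3 each) in wild-type NSC, Nf1-null NSC and glioma stem cells. On the log2 scale glioma stem cells differed by -3.03 (SE 0.48) from Nf1-null NSC, 8.15-fold lower, and by -1.69 (SE 0.48) from wild-type NSC, 3.22-fold lower. Nf1-null NSC differed from wild-type NSC by 1.34 (SE 0.48), and same-numbered arrays by 1.71, 1.91 and 0.41.

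A second Sulf1 probe set gave the same order of groups. It read 677.7, 369.6 and 1482.6 on the wild-type arrays, 1540.9, 1442.6 and 1604.3 on the Nf1-null arrays and 70.2, 181.7 and 116.5 on the glioma arrays. Its differences were 1.09 for Nf1-null against wild-type NSC, -3.73 for glioma against Nf1-null NSC and -2.64 for glioma against wild-type NSC. The third probe set was dim, between 9.4 and 38.4 on all 9 arrays, and gave -0.40, -0.66 and -1.06 for the same comparisons. The 8 pericyte, fibroblast and meningeal markers, 4 of them in the dimmest 25%, summed to 759 to 1081 in glioma stem cells, below the 1308 to 1793 of wild-type and 1414 to 2035 of Nf1-null NSC. Acta2 carried most of the NSC sums, at 695.8 to 1221.6 in wild-type and 760.6 to 1302.9 in Nf1-null NSC. It was 231.9 to 295.8 in glioma stem cells. For each other marker of the list the glioma range overlapped both NSC ranges. The part of these cell types in the Sulf1 signal was not tested.

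Sulf2, the second extracellular 6-O-sulfatase, was among the brightest 25% of genes and varied little. Its signals were 27903.7, 26564 and 23259.3 on the wild-type arrays, 27241.1, 30616.2 and 26600.4 on the Nf1-null arrays and 26152.2, 34233.2 and 32827.5 on the glioma arrays. All 3 groups overlapped. The log2 differences (SE 0.16) were 0.12 for Nf1-null against wild-type NSC, 0.14 for glioma stem cells against Nf1-null NSC and 0.26 for glioma stem cells against wild-type NSC. In its other probe sets the glioma differences from wild-type NSC were 0.32 and 0.32. So the highest and lowest group means of Sulf2 lay 0.26 apart, against 3.03 for Sulf1 and 5.42 for Hpse.

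**Figure D1:**
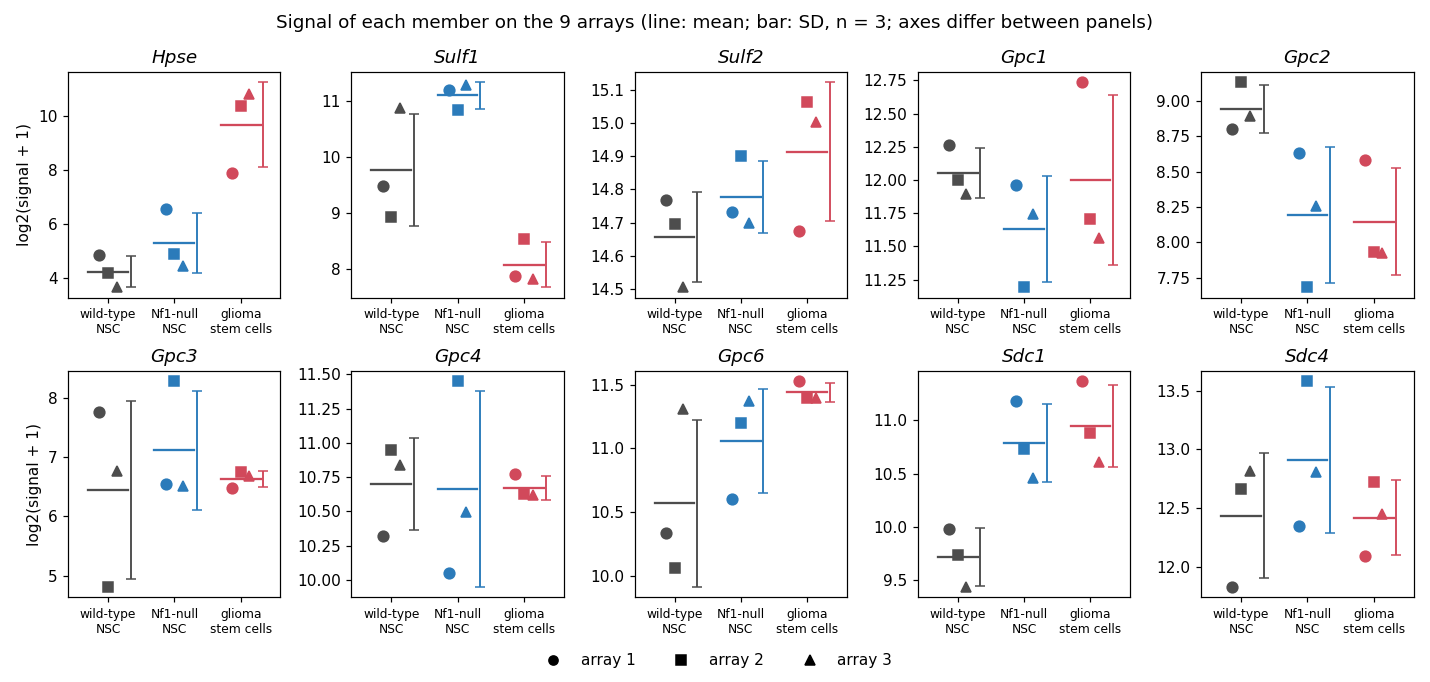
Signal of the 10 genes on each of the 9 arrays, as log2(signal + 1) on vertical axes that differ between panels, by group on the horizontal axis. Points are arrays (circle, square and triangle for arrays 1, 2 and 3), lines are group means and error bars are the SD (n = 3). All 3 glioma points lie above the NSC points for Hpse and below them for Sulf1.

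Gpc1, a membrane-anchored glypican made by many neural cells, was bright and overlapped in all groups. Its signals were 4915.8, 4103.8 and 3811.4 on the wild-type arrays, 3993.4, 2336.8 and 3438.7 on the Nf1-null arrays and 6828, 3333.5 and 3021.6 on the glioma arrays. The first glioma array stood above the other 8 arrays, and the other glioma arrays lay within the NSC range. The log2 differences (SE 0.35) were -0.42 for Nf1-null against wild-type NSC, 0.37 for glioma against Nf1-null NSC and -0.05 for glioma against wild-type NSC.

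Gpc2, a glypican of developing neurons and progenitors, was lower in both Nf1-null NSC and glioma stem cells than in wild-type NSC. Its signals were 444.4, 560.6 and 475 on the wild-type arrays, 396.1, 204 and 305.1 on the Nf1-null arrays and 382.5, 242.8 and 242.2 on the glioma arrays. No array of the other groups reached the lowest wild-type array, and the Nf1-null and glioma arrays overlapped. The differences from wild-type NSC were -0.75 (SE 0.29) in Nf1-null NSC, 1.68-fold lower, and -0.80 (SE 0.29) in glioma stem cells, 1.74-fold lower. The probe set shared with Gal3st4, a sulfotransferase gene, overlapped between groups, with differences from wild-type NSC of -0.76 and -0.55, and signal from either gene in it cannot be told apart.

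Gpc3 and Gpc4, glypicans encoded next to each other on the X chromosome, did not separate the groups. Gpc3 signals were 217.9, 27.1 and 107.7 on the wild-type arrays, 93.1, 311 and 90.2 on the Nf1-null arrays and 88.6, 106.3 and 101.9 on the glioma arrays. The NSC arrays of Gpc3 were widely scattered and the glioma arrays close together, with differences (SE 0.77) of 0.67, -0.48 and 0.19 for Nf1-null against wild-type, glioma against Nf1-null and glioma against wild-type cells. Gpc4 signals were 1277.2, 1976.4 and 1831.3 on the wild-type arrays, 1059.4, 2796.7 and 1441.6 on the Nf1-null arrays and 1748.8, 1582.9 and 1569 on the glioma arrays. The same 3 differences of Gpc4 (SE 0.35) were -0.04, 0.01 and -0.03, so its group means spanned less than those of the other members, and they were -0.08, -0.12 and -0.20 in its other probe set. Both genes lie on the X chromosome, and Xist, the RNA that coats the inactive X, was 587.7 and 385.6 on the third wild-type and the third Nf1-null array and at least 30974.5 on the other 7 arrays. On those 2 arrays Gpc3 was 107.7 and 90.2 and Gpc4 was 1831.3 and 1441.6, inside the range of the other arrays.

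Gpc6, a glypican also made by astrocytes, had its highest signals in glioma stem cells. The signals were 1292.8, 1067.2 and 2533.2 on the wild-type arrays, 1551, 2347 and 2651.6 on the Nf1-null arrays and 2947.7, 2691.6 and 2691.7 on the glioma arrays. All glioma arrays lay above all NSC arrays, but the lowest glioma array, at 2691.6, was only just above the highest Nf1-null array, at 2651.6. Glioma stem cells differed by 0.87 (SE 0.34), or 1.83-fold, from wild-type and by 0.38 (SE 0.34) from Nf1-null NSC. The other 4 probe sets of Gpc6 did not agree among themselves. Their glioma differences from wild-type NSC were 0.06, 0.80, 0.50 and 0.76, and from Nf1-null NSC -0.39, 0.64, 0.42 and 0.38.

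**Figure D2:**
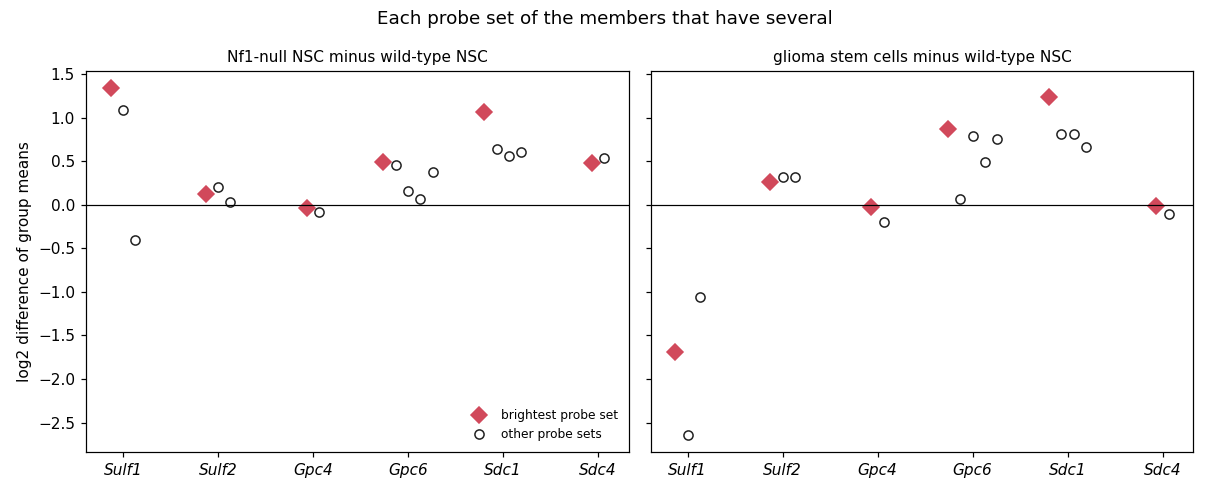
Log2 difference of group means (vertical axis) for every probe set of the 6 genes that have more than 1 (horizontal axis), for Nf1-null minus wild-type NSC on the left and glioma stem cells minus wild-type NSC on the right. Diamonds are the brightest probe set of a gene and open circles the others. In the right panel the Sulf1 probe sets lie at -1.69, -2.64 and -1.06, and those of Gpc6 between 0.06 and 0.87.

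Sdc1, a transmembrane syndecan whose shed ectodomain carries growth factors, was higher in both Nf1-null NSC and glioma stem cells than in wild-type NSC. Its signals were 1006, 853.9 and 692.9 on the wild-type arrays, 2314.4, 1695 and 1403.1 on the Nf1-null arrays and 2638.1, 1885.6 and 1556.2 on the glioma arrays. Every array of both groups lay above every wild-type array, and the Nf1-null and glioma arrays overlapped. The differences from wild-type NSC were 1.07 (SE 0.28), or 2.10-fold, in Nf1-null NSC and 1.23 (SE 0.28), or 2.35-fold, in glioma stem cells. Glioma stem cells differed from Nf1-null NSC by 0.16 (SE 0.28). Same-numbered NSC arrays differed by 1.20, 0.99 and 1.02.

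The 3 dimmer Sdc1 probe sets gave smaller differences of the same sign, 0.65, 0.56 and 0.61 for Nf1-null against wild-type NSC and 0.81, 0.82 and 0.66 for glioma stem cells against wild-type NSC. With the mean of all its probe sets, Sdc1 differed by 0.72 and 0.88. The ratio of 3' to 5' Actb signal, a measure of RNA quality and labelling, spanned 1.87 to 1.88 on wild-type arrays, 1.49 to 1.67 on Nf1-null arrays and 1.73 to 1.85 on glioma arrays. The same ratio for Gapdh overlapped between the groups, at 0.95 to 1.14, 0.93 to 0.96 and 0.95 to 1.14. Like the summed astrocyte markers, the Actb ratio separated wild-type NSC from both other groups, as Sdc1 and Gpc2 did. The part of either in the signals of Sdc1 and Gpc2 was not tested.

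Sdc4, a syndecan of focal adhesions, overlapped in all groups. Its signals were 3643.7, 6485.4 and 7195.9 on the wild-type arrays, 5217.5, 12227.7 and 7169.6 on the Nf1-null arrays and 4355.5, 6766.2 and 5579.7 on the glioma arrays. The second Nf1-null array was the highest of the 9 arrays and the first wild-type array the lowest. The differences (SE 0.38) were 0.48 for Nf1-null against wild-type NSC, -0.49 for glioma against Nf1-null NSC and -0.02 for glioma against wild-type NSC. Its other probe set gave 0.53, -0.64 and -0.11.

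**Figure D3:**
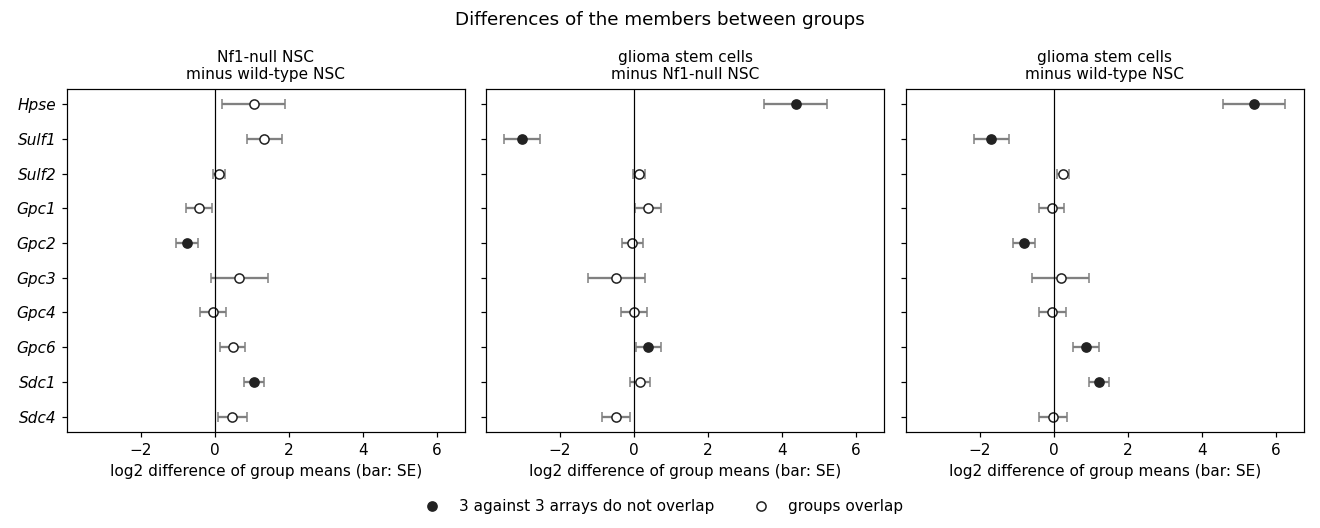
Log2 difference of group means (horizontal axis, bars are the SE) for the 10 genes (vertical axis) in the 3 comparisons, with filled points where the 3 against 3 arrays do not overlap and open points where they do. For glioma stem cells minus wild-type NSC, Hpse lies at 5.42, Sulf1 at -1.69 and Gpc4 at -0.03.

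Over the 10 genes the median difference was 0.48 for Nf1-null against wild-type NSC, 0.07 for glioma against Nf1-null NSC and 0.09 for glioma against wild-type NSC, beside -0.06, -0.04 and -0.09 over all 18193 genes. At an adjusted p under 0.05 in limma, 0 of the 10 passed for Nf1-null against wild-type NSC, where 0% of all genes did. In that comparison 3 of the 10 passed an unadjusted p under 0.05, beside 16.8% of all genes, and 0 of the 10 passed with a mean-variance trend, beside 1.81%. For glioma against Nf1-null NSC 1 of the 10, Sulf1, passed beside 1.75% of all genes, and it did not pass with the replicate number as a block or when the first wild-type array, any Nf1-null array, or the second or the third glioma array was left out. For glioma against wild-type NSC 2 of the 10, Hpse and Sdc1, passed beside 9.06% of all genes. Hpse did not pass without the second or the third wild-type array or the second or the third glioma array, and Sdc1 did not pass with the mean of its probe sets, with the 6 compared arrays alone, or without any 1 wild-type or glioma array or the second Nf1-null array. The groups did not overlap for 2 of 10 genes, 3 of 10 and 5 of 10 in the 3 comparisons, beside 23.8%, 21.9% and 34.8% of all genes. Same-numbered NSC arrays differed with 1 sign in all 3 pairs for Hpse, Sulf1 and Sdc1, given above, and also for Gpc1 (-0.30, -0.81 and -0.15), Gpc2 (-0.17, -1.45 and -0.64) and Gpc6 (0.26, 1.14 and 0.07). Since these signals bore on the choice of the genes, nothing was read from the counts. The 2 glioma comparisons share the glioma arrays, and the 2 comparisons with wild-type NSC share the wild-type arrays.

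The genes nearest in pattern to Hpse and Sulf1 were found among the 9097 brighter genes by the root mean square difference of centred log2 signals over the 9 arrays. For Hpse they were Gria4, an AMPA receptor subunit, at 0.94, Itga8, an integrin subunit, at 0.96 and Lpl, lipoprotein lipase, at 1.06. Itga8 signals were 159.2, 219.8 and 216.6 on the wild-type arrays, 570.9, 1122.1 and 963.4 on the Nf1-null arrays and 3199.2, 18747.2 and 17781 on the glioma arrays. Like Hpse, Itga8 was lowest on the first of the glioma arrays. Among the Nf1-null arrays, though, Itga8 was lowest on the first, where Hpse was highest, and Itga8 separated the NSC groups while Hpse did not. For Sulf1 the nearest were A2m, a protease inhibitor, at 0.46, Nrn1, a neurite growth factor, at 0.53 and Ecrg4, a secreted peptide precursor, at 0.54. A2m signals were 9534.4, 9448.4 and 17941.8 on the wild-type arrays, 17723, 32380.4 and 25860.1 on the Nf1-null arrays and 3954, 3172.1 and 2955.6 on the glioma arrays. As in Sulf1, the third wild-type array was the highest of its group, while the second Nf1-null array was the highest of its group in A2m and the lowest in Sulf1. Such likenesses follow from picking the genes by their pattern on these same arrays.

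**Figure D4:**
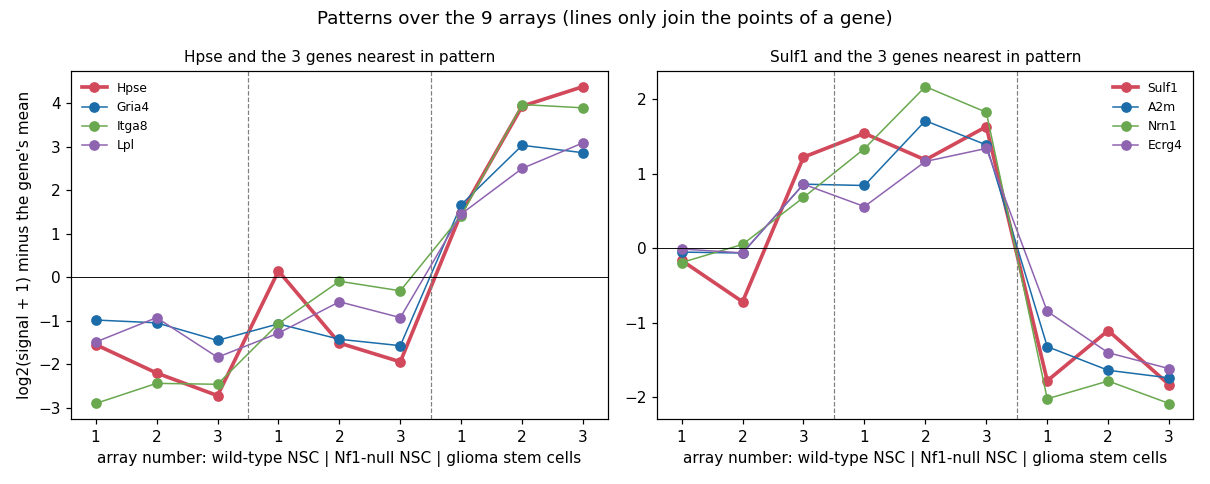
log2(signal + 1) minus the mean of each gene (vertical axis) on the 9 arrays ordered by group (horizontal axis), for Hpse and Sulf1 (thick lines) and the 3 genes nearest to each, where lines only join the points of a gene. Gria4, Itga8 and Lpl lie at 0.94 to 1.06 from Hpse, and A2m, Nrn1 and Ecrg4 at 0.46 to 0.54 from Sulf1.

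Outside the 10 genes, the machinery that makes, sulfates and breaks down heparan sulfate was followed through a list of 54 genes, of which 50 were measured and 4 were not analysed here. In limma, 0 of the 50 passed for Nf1-null against wild-type NSC, with 9 of 50 at an unadjusted p under 0.05 (3 higher and 6 lower). For glioma against Nf1-null NSC 1 of 50 was higher and 0 lower, and for glioma against wild-type NSC 2 were higher and 1 lower. These shares of 0%, 2% and 6% stood beside 0%, 1.75% and 9.06% of all genes. The list medians were -0.01, 0.07 and 0.13 log2 units. By role, passing genes were found among the 7 precursor supply genes and the 14 chain modification genes, and 0 among 10 other core proteins, 11 linker and chain building genes, and 8 genes of lysosomal breakdown and heparanase 2. That division did not hold in other fits of glioma against wild-type NSC: with a mean-variance trend Agrn, Extl3 and Hpse2 passed, 1 in each of the latter 3 roles, and with the replicate block Gpc5 and Hpse2 did. The Nf1-null and wild-type arrays did not overlap for 11 of the 50, beside 23.8% of all genes. For glioma against wild-type NSC it was 17 of the 50, beside 34.8%. Papss2, Hs6st2, Uxs1 and Ugdh, described next, were picked for passing or for a small p, which favours genes whose groups separate. Each of these 4 separated wild-type NSC from both other groups. So did the Actb ratio, though not the Gapdh ratio, and the summed astrocyte markers. The part of the Actb ratio or of those markers in these differences was not tested.

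Papss2, which makes the sulfate donor PAPS, was lower in glioma stem cells than in wild-type NSC. Its signals were 1163.7, 2006.8 and 949.9 on the wild-type arrays, 299.8, 303.9 and 312.9 on the Nf1-null arrays and 223.7, 150.1 and 191.2 on the glioma arrays. In this probe set, the brightest of 4, the 3 groups did not overlap at all. The difference was -2.80 (SE 0.29; limma adjusted p = 0.00674), 6.99-fold lower, against wild-type NSC. Nf1-null NSC differed from wild-type NSC by -2.09 (adjusted p = 0.0825) and glioma stem cells from Nf1-null NSC by -0.71 (adjusted p = 0.276). The Nf1-null difference passed with a mean-variance trend (adjusted p = 0.0226) and without the dimmest 25% of genes (adjusted p = 0.0365). Its 3 dimmer probe sets gave glioma differences from wild-type NSC of -0.47, -1.73 and -1.97. They did not agree on the other comparisons. Their Nf1-null differences from wild-type NSC were -0.39, 0.34 and -2.60, and their glioma differences from Nf1-null NSC -0.08, -2.08 and 0.63.

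Hs6st2, a sulfotransferase that adds 6-O-sulfate groups of the kind Sulf1 removes, rose in glioma stem cells. Its signals were 697.2, 721.9 and 633.2 on the wild-type arrays, 826.5, 1510.8 and 969.6 on the Nf1-null arrays and 2399.6, 2713 and 2597.8 on the glioma arrays. In this probe set, the brightest of 4, the groups were in ascending order with no overlap. Glioma stem cells exceeded wild-type NSC by 1.91 (SE 0.23; limma adjusted p = 0.00953), 3.75-fold, and Nf1-null NSC by 1.27 (adjusted p = 0.0447), 2.41-fold, while Nf1-null NSC differed from wild-type NSC by 0.64 (adjusted p = 0.231). The difference from Nf1-null NSC did not pass with the replicate block (adjusted p = 0.0614), or when any array other than the second Nf1-null array was left out (adjusted p from 0.0509 to 0.165). With the mean of its 4 probe sets neither glioma difference passed, at 1.44 (adjusted p = 0.0721) and 1.56 (adjusted p = 0.126), and the Nf1-null difference from wild-type NSC changed sign, to -0.11.

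Uxs1, which makes the UDP-xylose used to start the chains, was higher in glioma stem cells than in wild-type NSC. Its signals were 2420.7, 1624.6 and 1611.2 on the wild-type arrays, 3156.3, 3495.6 and 3165.5 on the Nf1-null arrays and 2871.4, 4027.3 and 4661.7 on the glioma arrays. All arrays of both other groups lay above the wild-type arrays. The glioma difference was 1.03 (SE 0.24; limma adjusted p = 0.0400), 2.04-fold, and the Nf1-null difference 0.82 (adjusted p = 0.186). The glioma difference did not pass with the replicate block (adjusted p = 0.0776) or with the 6 compared arrays alone (adjusted p = 0.0877), and it did not pass without the second or the third wild-type array, any Nf1-null array, or the second or the third glioma array (adjusted p from 0.0549 to 0.133). Its other probe sets gave 1.06 and 1.42.

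Ugdh, which makes the UDP-glucuronic acid used in the chains, was named for its small p in the Nf1-null comparison. Its signals were 12352.1, 13538.7 and 13280.9 on the wild-type arrays, 6550.4, 3391.3 and 9106.3 on the Nf1-null arrays and 7103.8, 6742.5 and 6578.2 on the glioma arrays. Every wild-type array lay above every other array. The differences from wild-type NSC were -1.15 (SE 0.33; limma adjusted p = 0.179) in Nf1-null NSC and -0.94 (adjusted p = 0.117) in glioma stem cells, and neither passed. The glioma difference passed with the 6 compared arrays alone (adjusted p = 0.0343), without the second Nf1-null array (adjusted p = 0.0268) and among the 9097 brighter genes (adjusted p = 0.0453).

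**Figure D5:**
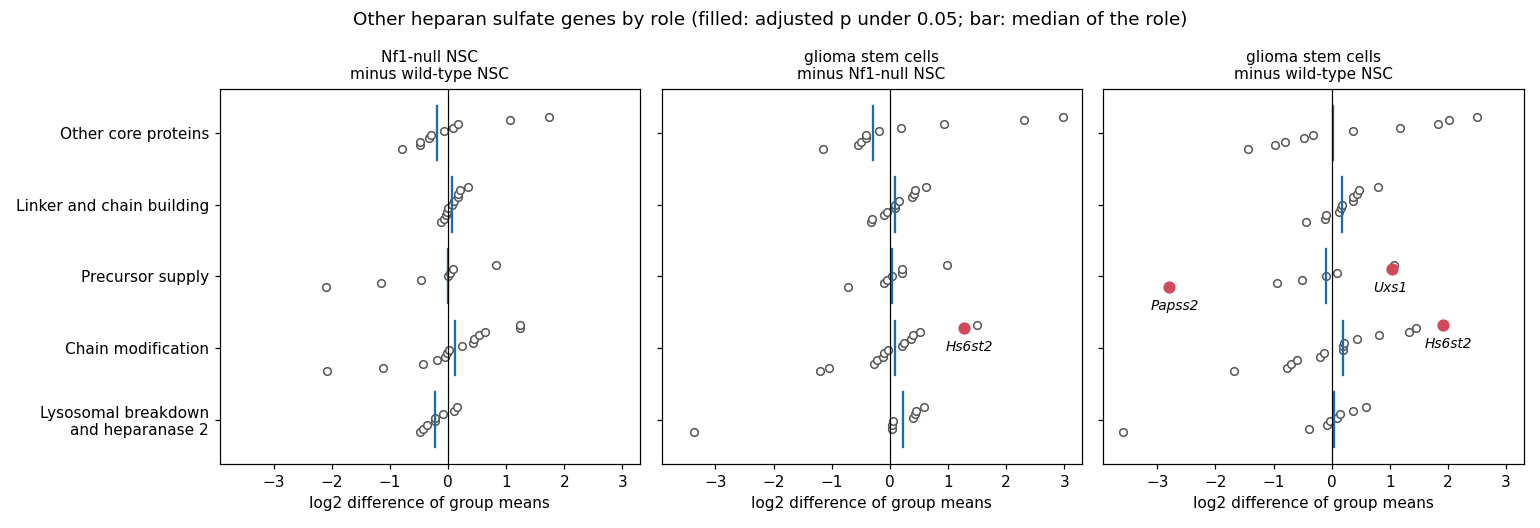
Log2 difference of group means (horizontal axis) of the 50 measured pathway genes by role (vertical axis) in the 3 comparisons. Each point is a gene, filled and named where the adjusted p in limma was under 0.05, and bars are role medians. For glioma stem cells minus wild-type NSC, Papss2 lies at -2.80, Uxs1 at 1.03 and Hs6st2 at 1.91.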

How the data were processed

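The 9 samples were hybridised to Affymetrix arrays as biotin-labelled cRNA, for which the labels' protocols give 100 ng of RNA as input. The deposited values were linear signal intensities of probe sets. The software behind them is not stated in the labels or headers. Every array had a mean of 1500 after trimming 2% at each end, and such scaling sets aside differences in total RNA. Of 45101 probe sets, 34945 with exactly 1 symbol in the platform annotation were kept, and the brightest stood for each of 18193 genes. Values were taken as log2(value + 1). R 4.3.3 and limma 3.58.1 fitted 3 group means over all 9 arrays, two-sided, with Benjamini-Hochberg adjustment over all genes and a threshold of 0.05. The fit was tested on simulated data. Each array was placed in its group, and numbered, by its label.

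The members and lists were chosen with earlier results of these data known. Named genes were the 10 members with all their probe sets, pathway genes that passed in any comparison (or the 3 smallest p where none did), the 3 nearest patterns to members whose group means spanned over 2 log2 units, Nf1 and Xist. The GC box was added to the AP-1 and ETS motifs later. Deviations from group means of same-numbered NSC arrays correlated at 0.64, 0.24 and 0.59 over 9097 brighter genes and at 0.13, 0.05 and 0.17 over all genes. This pairing comes from the data. Same-numbered glioma arrays correlated over brighter genes at 0.30, 0.12 and 0.11 with Nf1-null and at 0.24, 0.05 and 0.20 with wild-type NSC. Differently numbered ones spanned -0.25 to 0.11 with Nf1-null and -0.24 to 0.19 with wild-type NSC, so they reached some of the same values. The glioma cultures came from other mice, so what same-numbered arrays share cannot be told from these values. Alternatives were quantile normalization, a pseudocount of 16, filters on dim genes, the mean of probe sets, a trend, the compared arrays alone, the replicate block, a threshold of 0.1 and leaving out each array.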

Additional observations from a re-analysis of the deposited data

Results flagged for a closer look

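The 2 other groups lay on opposite sides of the wild-type NSC mean in Sulf1. All 3 Nf1-null arrays lay above that mean and all 3 glioma arrays below it, and glioma stem cells differed from Nf1-null NSC by -3.03 log2 units. The Nf1-null and wild-type arrays overlapped, with the third wild-type array at 1875.2 and the second Nf1-null array at 1827.8. The difference between these groups was 1.34, was 0.68 with the mean of probe sets and was -0.40 in the dimmest probe set. The opposition was not tested, because Sulf1 was chosen with these signals known.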

How the results depend on the processing

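Of 450 recomputed differences of the 10 genes, 447 moved by less than the replicate SD and 3 moved more, all with the mean of probe sets (Sulf1 0.68, Sdc1 0.72 and 0.88). Many of the 450 could not move. The replicate block, the 6 compared arrays alone and leaving out an array of the group not compared return the same difference. So does the mean of probe sets for the 4 members with 1 probe set. Differences near 0 or with wide spread changed sign when 1 array was left out, such as that of Gpc3 between the NSC groups (-0.15 to 1.33), while the glioma differences of Hpse and Sulf1 kept theirs. Members passing for glioma against Nf1-null NSC (1) became 2 with a pseudocount of 16, a mean-variance trend or a threshold of 0.1, 0 with the replicate block, and 0 to 2 when 1 array was left out. For glioma against wild-type NSC (2) they became 1 with the 6 compared arrays alone, 3 with every probe set tested, a trend or a threshold of 0.1 (Sulf1 added), and 0 to 2 without 1 array, and with the mean of probe sets they were Hpse and Sulf1. For Nf1-null against wild-type NSC (0) they became 1, Sdc1, among the 9097 brighter genes. Pathway genes passing for glioma against Nf1-null NSC (1) became 0 with quantile normalization, the mean of probe sets, every probe set tested, the 6 arrays alone or the replicate block, 2 among brighter genes or with a trend, and 0 to 2 without 1 array. Against wild-type NSC (3) they became 5 without the dimmest 25%, 7 among brighter genes, with a trend or at 0.1, and 2 to 8 without 1 array. For Nf1-null against wild-type NSC (0) they became 1 without the dimmest 25%, with a trend or at 0.1. Over all genes, the 0 passing for Nf1-null against wild-type NSC became 136, 398, 329 and 156 without the dimmest 25%, among brighter genes, with a trend and at 0.1. The 319 for glioma against Nf1-null NSC became 149 with the mean of probe sets, 29 with the 6 arrays, 193 with the replicate block, 536 without the dimmest 25%, 607 among brighter genes, 737 with a trend, 628 at 0.1 and 72 to 721 without 1 array. The 1649 for glioma against wild-type NSC became 1083, 1030, 2488, 2680 and 2998 with the mean of probe sets, the 6 arrays, the dimmest 25% left out, a trend and 0.1, and 214 to 1756 without 1 array. Hpse lies in the dimmest 25% of genes, so both filters removed it. Without it the members passing for glioma against wild-type NSC were Sdc1 and Sulf1.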

Other observations

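Heparanase 2 and glypican 5, relatives of Hpse and Gpc6, were singled out after their values were seen. Hpse2, which binds heparan sulfate without cutting it, was dim, with signals of 35.9, 123.8 and 92.3 on the wild-type arrays, 14.5, 142.7 and 119.5 on the Nf1-null arrays and 2.4, 14.5 and 3.6 on the glioma arrays. Its difference for glioma stem cells against wild-type NSC was -3.60 log2 units (limma adjusted p = 0.0616) and did not pass, but it passed with the replicate block (adjusted p = 0.0234), with a mean-variance trend (adjusted p = 0.0349) and without the first Nf1-null array (adjusted p = 0.0373). At such low signals its size is set by the pseudocount, and with 16 in place of 1 it was -2.05 (adjusted p = 0.0823). Gpc5 signals were 146.1, 304.4 and 1118.8 on the wild-type arrays, 123.6, 199.3 and 750 on the Nf1-null arrays and 945.9, 3455.2 and 2751.8 on the glioma arrays. Glioma stem cells lay above Nf1-null NSC on every array, by 2.97 log2 units (adjusted p = 0.177 in limma), which did not pass. Against wild-type NSC the groups overlapped, since the first glioma array at 945.9 was below the third wild-type array at 1118.8. That difference was 2.49 (adjusted p = 0.142) and passed with the replicate block (adjusted p = 0.0398).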
